A study of Mus musculus with 9 samples.

Results

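Among the genes measured in mouse embryonic stem cells with a degradable Suz12, 26 of 48440 were on in untreated cells and nearly silent after auxin. They were chosen by their level alone: a mean of at least 1 CPM (the count divided by the library total, scaled alike in all libraries) in the Mock libraries and under 0.2 CPM in the Auxin libraries. In all, 28 genes met these limits, and 2 of them, Krt13 and Foxr1, were set aside with the keratin, collagen, potassium channel, Hox, T-box, Pax, forkhead, Sox and Wnt families. Of the 26 genes, 22 were protein-coding, 2 were long intergenic noncoding RNAs (Gm40457 and Gm30692) and 2 were processed pseudogenes (E530001F21Rik and Gm13549). The fall from Mock to Auxin is what chose them and is given below as a description, with no test. The Reintroduction libraries had no part in the choice.

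All 9 libraries are polyadenylated RNA from J1 mouse embryonic stem cells of the genotype Suz12-AID, whose Suz12 protein bears a degron, so that the plant hormone auxin leads to its destruction. The cells grew on gelatin in medium with serum, leukemia inhibitory factor (LIF), a MEK inhibitor and the GSK3 inhibitor CHIR99021. The 3 groups, each of 3 biological replicates, are Mock (same genotype, no auxin named), Auxin (indole-3-acetic acid at 50 µM for 96 h) and Reintroduction (the same auxin treatment followed by a washout of 4.5 h). The controls carry the degron too, and the labels name no untagged line, no number of clones and no culture date, so that an effect of auxin itself and one of Suz12 loss cannot be told apart. In bulk RNA, fewer cells of a type and less RNA per cell cannot be told apart either.

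Suz12 is needed by PRC2, the Polycomb enzyme complex that methylates histone H3 at developmental genes and keeps them silent. Histone methylation and PRC2 binding were not measured here, so whether any gene of the list is a direct target of PRC2 was not tested. The medium matters for reading the list: GSK3 inhibition stabilises beta-catenin and turns on genes bound by TCF factors, and LIF acts through the transcription factor STAT3. Embryonic stem cells also transcribe, at low levels, many genes better known from differentiated tissues.

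Library totals lay between 44341283 and 113931419 counts, with both mates of a pair counted singly, so 1 count was worth between 0.00878 and 0.0226 CPM. Suz12 mRNA, which the degron does not act on, lay between 113.5 and 128.4 CPM (Mock), 128.7 and 164.2 CPM (Auxin) and 165.5 and 174.7 CPM (Reintroduction). It was called higher in Reintroduction than in Auxin (edgeR, log2 fold change 0.25, adjusted p = 0.0245). The summed level of 10 embryonic stem cell markers lay between 5498 and 5622 CPM (Mock), 7508 and 7920 CPM (Auxin) and 5609 and 5679 CPM (Reintroduction), with none at 0. The 8 feeder fibroblast markers summed to between 17.2 and 18.5 CPM (Mock), 43.3 and 50.1 CPM (Auxin) and 38.3 and 39.5 CPM (Reintroduction), nearly all of it from Thy1 (means of 16.6, 44.0 and 38.0 CPM). The matrix genes Dcn, Lum and Postn had means of at most 0.0209 CPM in every group, and 1, 3 and 1 of the 8 markers were at 0 counts. Over all genes tested, the log2 differences between Auxin replicate 2 and the other Auxin libraries had SDs of 0.248 and 0.283, against 0.105 to 0.149 between the other libraries of any 1 group. Cdx2, whose Auxin counts came mostly from it, is given with and without it.

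In Mock the 26 genes were weakly expressed, with means from 1.01 CPM (Slc38a5) to 6.18 CPM (Apol6) and a median of 1.60 CPM. Every one of them had under 10 CPM, as did 32.8% of the 14578 genes with a Mock mean of at least 1 CPM. In Auxin their median was 0.114 CPM, and 2 genes, Teddm3 and E530001F21Rik, had 0 counts in all 3 libraries. The Mock and Auxin libraries did not overlap in any of the 26, as the choice nearly ensures, where 28.2% of the 20838 genes tested were lower in Auxin without overlap. At the Mock limit the last genes inside were Slc38a5, Slc38a3 (1.03 CPM) and Myh6 (1.05 CPM), and the first outside were Kremen2 (0.995 CPM), Slc5a11 (0.981 CPM) and Gm26298 (0.938 CPM). At the Auxin limit the last inside were Fam184b (0.196 CPM), Myh6 (0.191 CPM) and Cend1 (0.187 CPM), and among the first outside were Gm15707 (0.21 CPM) and Etv2 (0.218 CPM).

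**Figure D1:**
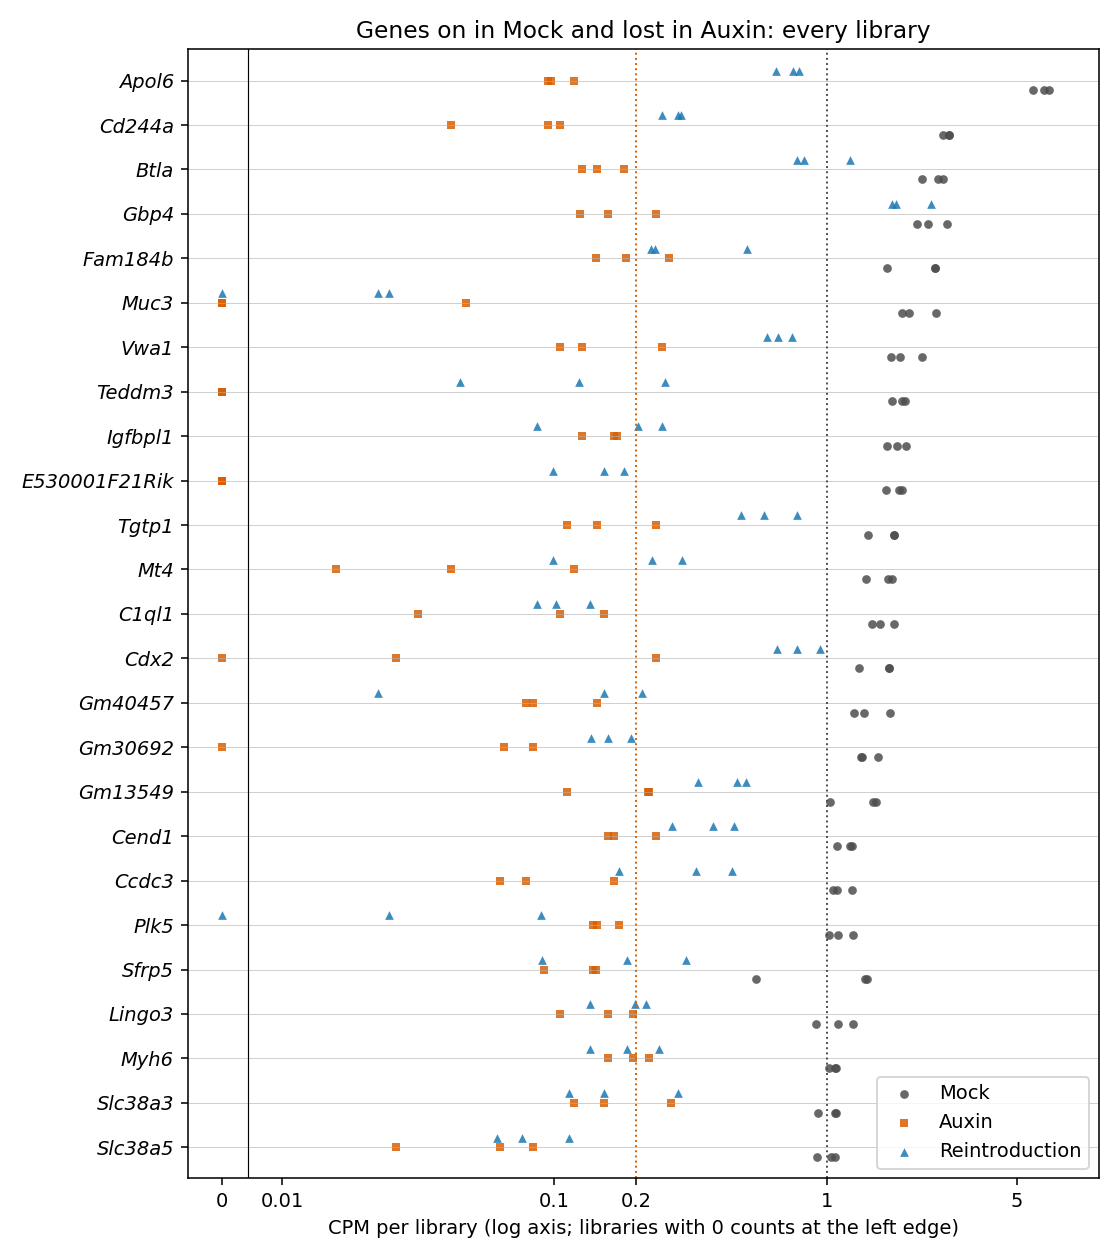
CPM of 25 of the 26 genes in each of the 9 libraries on a log axis, with libraries at 0 counts drawn at the left edge and dotted lines at the 2 limits of the choice (0.2 and 1 CPM). The Reintroduction points of Gbp4 reach into the Mock range, those of Muc3 stay with Auxin, and those of Plk5 lie to the left of Auxin.

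After washout, 15 of the 26 genes rose above their Auxin level (edgeR quasi-likelihood test over all genes, adjusted p under 0.05), beside 25.5% of all genes tested that were called higher. Plk5 was called lower, and 10 genes did not pass. All 3 Reintroduction libraries lay above all 3 Auxin libraries in 14 genes (23.6% of all genes tested). Because the Auxin side of this comparison was chosen for low values, the count describes these genes and is not independent of the choice. The Reintroduction mean reached at least 0.2 CPM, the limit set for Auxin, for 13 genes. Of these, 12 were among the 15 called higher, with Fam184b as the exception. The other 3 called higher, Teddm3, E530001F21Rik and Gm30692, stayed under 0.2 CPM. A mean of at least 1 CPM, the limit set for Mock, was reached by Gbp4 alone. Without Reintroduction replicate 1 it was reached by 3 genes and without replicate 3 by 2. Btla, at 0.941 CPM, lay just under it.

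Measured against Mock, recovery was partial at most. All 26 genes were called lower in Reintroduction than in Mock, beside 33.4% of all genes tested, and 0 were called higher, beside 34.7%. The choice of genes high in Mock favours this. Without overlap, 25 of the 26 were below every Mock library (31.0% of all genes), the exception being Gbp4. The Reintroduction mean was a median of 15.7% of the Mock mean, against 7.08% in Auxin. It reached at least 50% for Gbp4 and Cdx2, at least 25% for 9 genes, and was under 10% for 9. In Reintroduction against Auxin the median log2 fold change was 1.48 for the 26 genes and 0.003 for all genes tested. In Reintroduction against Mock the medians were -2.75 and 0.03.

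**Figure D2:**
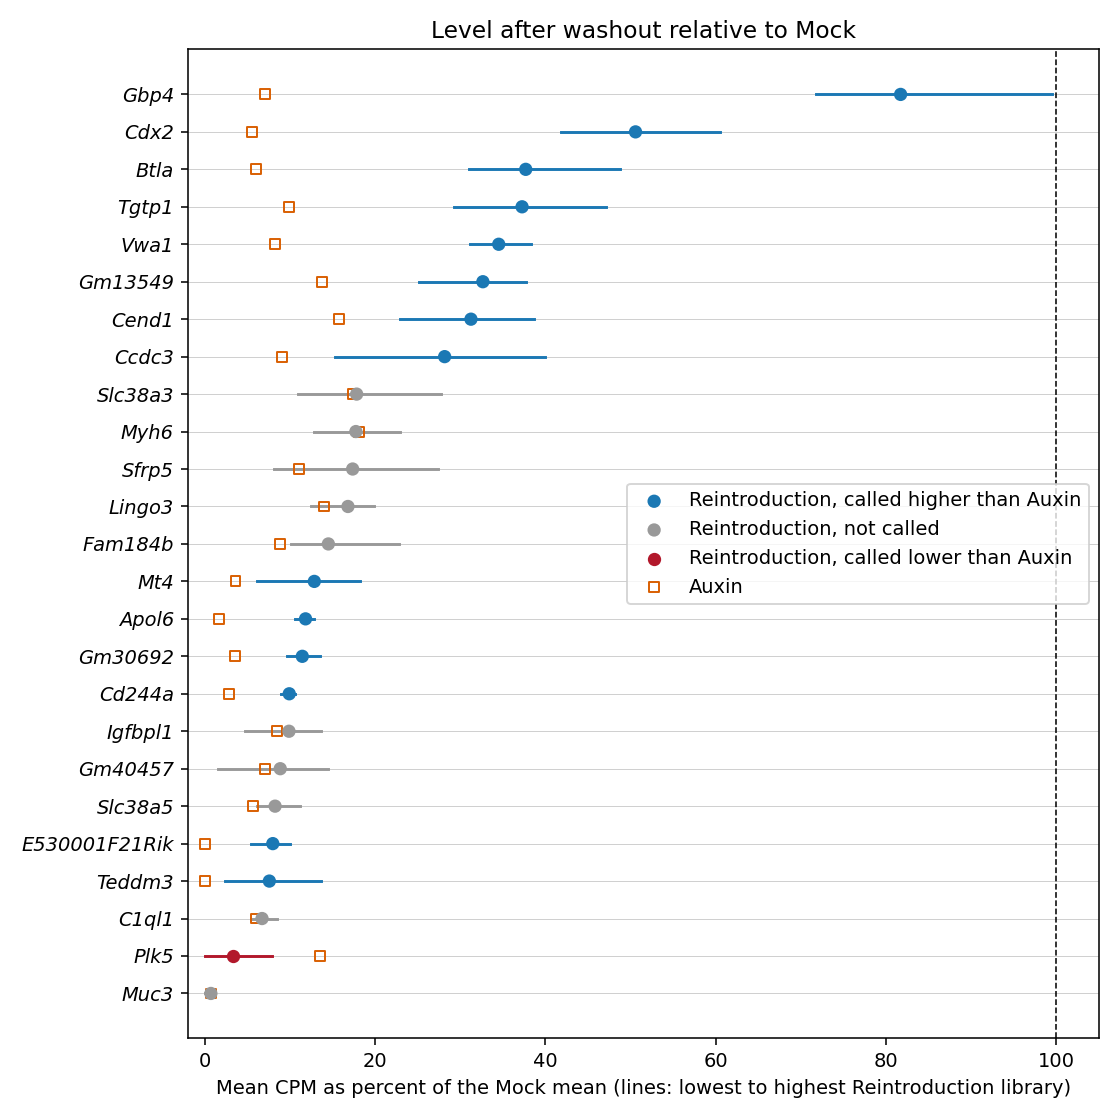
For 25 of the 26 genes, mean CPM in Reintroduction (filled points; lines run from the lowest to the highest library) and in Auxin (open squares) as percent of the Mock mean, coloured by the call of Reintroduction against Auxin. Gbp4 at 81.7% and Cdx2 at 50.6% head the order, and Plk5 at 3.38% and Muc3 at 0.737% end it.

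For comparison, 79 genes fell without reaching silence: at least 1 CPM in Mock, at least 0.2 CPM in Auxin, and an Auxin mean of at most 18.1% of Mock, the highest such share among the 26. Their fall was smaller, with an Auxin mean at a median of 13.1% of Mock against 7.08%. Of these, 63 (79.7%) were called higher after washout, as against 57.7% of the 26, and their Reintroduction mean was a median of 28.7% of Mock. The 79 genes have more counts in Auxin, so that a given fold is easier to call, and the difference between the sets was not tested.

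Genes known to respond to interferon were part of the list. Gbp4 encodes a guanylate-binding protein and Tgtp1 an immunity-related GTPase, both large GTPases that cells induce against intracellular pathogens, and Apol6 encodes an apolipoprotein L, a family with roles in lipid binding and cell death. Gbp4 (ENSMUSG00000079363.7; mm10 chromosome 5, 105115767 to 105139586) had 2.15, 2.77 and 2.36 CPM in Mock replicates 1 to 3, 0.235, 0.125 and 0.158 CPM in Auxin, and 1.74, 2.41 and 1.79 CPM in Reintroduction. The Reintroduction libraries lay far above Auxin, and replicate 2 lay within the Mock range. Its exons overlap those of Gbp8, with means of at most 0.0347 CPM, and Gbp9, with 0.443, 0.278 and 0.464 CPM in the 3 groups, so part of its low Auxin level of 0.173 CPM is uncertain. It rose by 3.56 (log2; SE 0.24, adjusted p = 5.86e-07). Its remaining difference from Mock was small, a log2 fold change of -0.44 with SE 0.17 (adjusted p = 0.0413). That call was lost when counts were scaled by library totals alone (log2 -0.31, adjusted p = 0.143), a scaling that moved the median of all genes from 0.03 to 0.16, and without Mock replicate 2 or 3 or Reintroduction replicate 1 or 3 (-0.36 to -0.48).

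Apol6 (ENSMUSG00000033576.11; chromosome 15, 77044729 to 77057107) was the most abundant of the 26 in Mock, with 6.55, 6.26 and 5.72 CPM. It had 0.118, 0.097 and 0.0945 CPM in Auxin and 0.75, 0.654 and 0.791 CPM in Reintroduction, 3 groups without overlap. Its rise of 2.90 (log2; SE 0.21, adjusted p = 8.49e-07) left it at 11.8% of Mock. Its exons overlap those of Mb, the myoglobin gene, which had means of 0.517, 0.0442 and 0.0568 CPM in Mock, Auxin and Reintroduction. Without strand, reads of the overlap cannot be assigned.

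Tgtp1 (chromosome 11, 48985327 to 48994172) had 1.76, 1.77 and 1.42 CPM (Mock), 0.144, 0.111 and 0.236 CPM (Auxin) and 0.483, 0.586 and 0.779 CPM (Reintroduction). The groups did not overlap, and the rise after washout was 2.01 on the log2 scale (SE 0.31, adjusted p = 2.52e-04), to 37.3% of Mock. Its near-identical neighbour Tgtp2 also rose after washout (log2 fold change 1.77, SE 0.35, adjusted p = 0.00143), with 0.878 ± 0.028 CPM (Mock), 0.0662 ± 0.016 CPM (Auxin) and 0.22 ± 0.048 CPM (Reintroduction; SD, n = 3). The counting could split or drop reads that fit both copies, so both levels are uncertain. Among the 6 other immunity-related GTPases tested, 3 (Tgtp2, Irgm1 and Irgq) rose and 0 fell after washout (edgeR, 0 lower at an unadjusted p under 0.05 as well). Over all genes tested, 25.5% were called in each direction. The rise of Irgq was small (log2 fold change 0.46, SE 0.079). Irgm1, which regulates these GTPases, went from 7.02 ± 0.31 to 2.21 ± 0.081 and back to 6.0 ± 0.76 CPM, and Irgm2 had 1.4 ± 0.15, 1.6 ± 0.084 and 1.51 ± 0.13 CPM with no call.

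Of the 12 guanylate-binding protein genes counted, 3 were expressed enough to be tested, and beside Gbp4 only Gbp2b was called after washout (log2 fold change 2.17, SE 0.63, adjusted p = 0.0136). Gbp2b did not share the course of Gbp4. It had 0.0117 ± 0.020 CPM (Mock), 0.0698 ± 0.060 CPM (Auxin) and 0.31 ± 0.077 CPM (Reintroduction). It ended above Mock (edgeR, log2 fold change 4.17, SE 0.78, adjusted p = 6.44e-04). A list of interferon response genes outside these families was written after the 26 genes were known, and 29 of its genes were tested. By the test, Auxin was above Mock in 14 and below it in 12 (38.4% and 34.8% of all genes tested). After washout 12 rose and 8 fell (25.5% each way), and 14 ended above and 10 below Mock (34.7% and 33.4%). Isg15, Ifit1, Mx1 and Cxcl10, which interferon induces strongly, had group means under 0.08 CPM throughout. Others on the list were expressed at higher levels and moved in both directions. Oas1a had 14.9 ± 0.77, 4.51 ± 0.22 and 8.26 ± 0.34 CPM in the 3 groups, and Bst2 had 24.0 ± 2.2, 7.07 ± 0.35 and 5.91 ± 0.27 CPM. By contrast, B2m had 14.8 ± 0.17, 39.3 ± 2.4 and 29.6 ± 0.47 CPM, and Ifngr1 had 1.85 ± 0.027, 12.9 ± 0.94 and 6.3 ± 0.19 CPM.

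A pair of immune receptor genes belonged to the list. Btla encodes an inhibitory receptor of B and T lymphocytes, and Cd244a encodes a receptor of natural killer cells from the SLAM family. Btla (chromosome 16, 45224315 to 45252895) had 2.24, 2.67 and 2.57 CPM (Mock), 0.144, 0.18 and 0.126 CPM (Auxin) and 0.776, 1.22 and 0.828 CPM (Reintroduction). All 3 groups were separate, with a rise of 2.67 (log2; SE 0.25, adjusted p = 7.08e-06) to 37.7% of Mock. Cd244a (chromosome 1, 171559193 to 171609746) fell from 2.67, 2.81 and 2.82 CPM to 0.105, 0.0416 and 0.0945 CPM and came back to 0.292, 0.248 and 0.284 CPM. That is a tight set of values, called higher than Auxin (log2 fold change 1.85, SE 0.30, adjusted p = 3.64e-04) and still at 9.94% of Mock. Tnfrsf14, the ligand of Btla, and Cd48, the ligand of Cd244a, had means under 0.04 CPM in every group.

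Cdx2, a homeobox factor of trophectoderm and posterior embryo and a target of Wnt signalling, made the largest return after Gbp4. It (chromosome 5, 147300805 to 147307270) had 1.69, 1.31 and 1.7 CPM (Mock), 0.0261, 0.236 and 0 CPM (Auxin) and 0.776, 0.947 and 0.655 CPM (Reintroduction). Auxin replicate 2 held 17 of its 19 Auxin counts. It rose by 3.18 (log2; SE 0.59, adjusted p = 9.96e-04). Without Auxin replicate 2 the ratio of Reintroduction to Auxin was 53.5, with an exact (Clopper-Pearson) 95% interval of 14.6 to 446 that covers counting error only. Its level was 50.6% of Mock, a log2 fold change of -1.14 with SE 0.40 (adjusted p = 0.0244) whose call was lost under the DESeq2 Wald test (adjusted p = 0.253), with the length trend removed (-0.93, adjusted p = 0.052), and without Mock replicate 1 or 3 or Reintroduction replicate 1 or 3 (-1.04 to -1.15).

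Of the 16 other Wnt-TCF target genes, Auxin was below Mock in 11 and above it in 2 by the test (34.8% and 38.4% of all genes tested). After washout 8 rose and 2 fell (25.5% of all genes each way). T (Brachyury), the regulator of mesoderm, came close to the limits of the choice with 9.08 ± 0.45 CPM (Mock), 0.272 ± 0.13 CPM (Auxin) and 1.37 ± 0.16 CPM (Reintroduction). Ccnd1, a cyclin of the G1 phase, had 146.9 ± 7.5, 21.5 ± 0.77 and 91.4 ± 1.9 CPM, and the feedback inhibitor Axin2 had 49.6 ± 1.6, 25.3 ± 0.19 and 43.5 ± 1.7 CPM. Lgr5, a receptor that strengthens Wnt signalling, had means of 0.507 ± 0.082, 0.123 ± 0.016 and 0.105 ± 0.027 CPM, with no call after washout (adjusted p = 0.854). Cdx1, the closest relative of Cdx2, went another way, with 47.8 ± 4.0, 57.3 ± 4.2 and 34.2 ± 1.6 CPM. The 6 trophoblast markers, Cdx2 included, summed to between 72.0 and 75.3 CPM (Mock), 152.0 and 166.1 CPM (Auxin) and 175.3 and 178.1 CPM (Reintroduction). The sum is carried by few genes and did not describe each of them. Of 8 tested genes of the wider trophoblast list other than Cdx2, Auxin was above Mock in 5, among them Tfap2c (25.2, 92.6 and 45.5 CPM in the 3 groups), and below it in 3, among them Eomes (32.7, 27.4 and 67.7 CPM). Over all genes tested these shares were 38.4% and 34.8%.

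**Figure D3:**
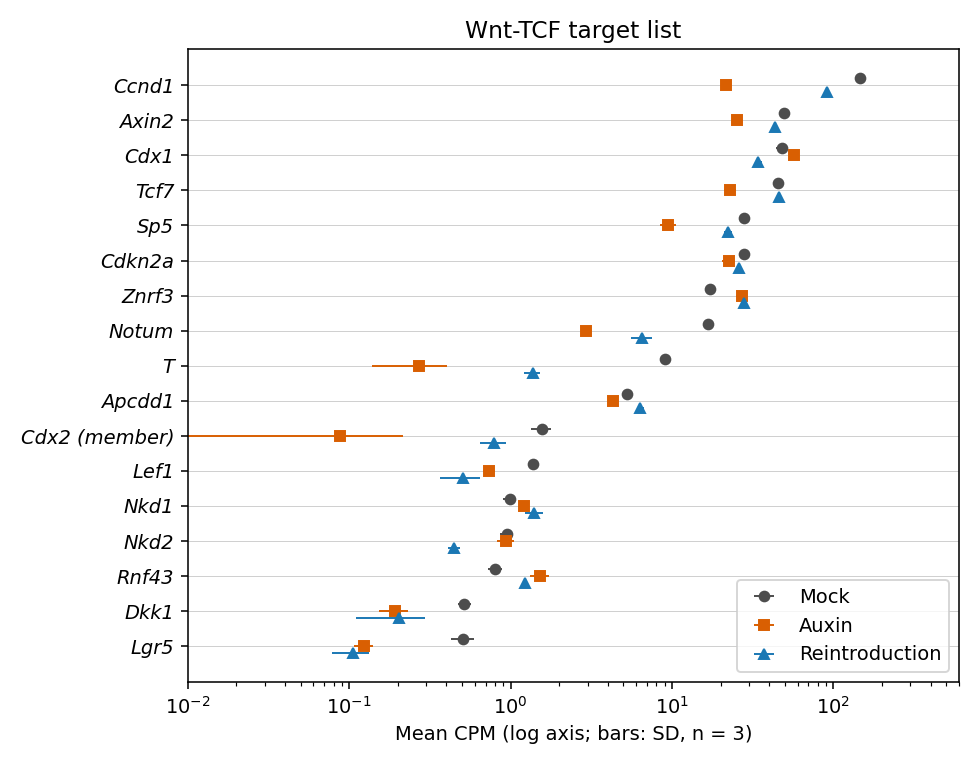
Mean CPM on a log axis (bars: SD, n = 3; bars that would reach 0 end at the axis) of the 17 genes on the Wnt-TCF target list in the 3 groups. Cdx2 has an Auxin mean of 0.0872 CPM, and the Reintroduction means of Ccnd1 and Axin2 lie between Auxin and Mock.

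Sfrp5, a secreted antagonist of Wnt ligands (chromosome 19, 42197971 to 42202252), was the least even of the 26 in Mock, with 1.4, 1.39 and 0.548 CPM. It had 0.0915, 0.139 and 0.142 CPM in Auxin and 0.305, 0.0902 and 0.185 CPM in Reintroduction, 2 groups that overlapped. Its change after washout did not pass (log2 fold change 0.82, SE 0.58, adjusted p = 0.264). Without Mock replicate 1 or 2 its Mock mean would not reach 1 CPM.

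Genes for matrix, secreted and surface proteins divided into genes that rose after washout and genes that did not pass. Vwa1, a matrix protein of cartilage and peripheral nerve (chromosome 4, 155768149 to 155774698), had 2.24, 1.86 and 1.72 CPM (Mock), 0.105, 0.249 and 0.126 CPM (Auxin) and 0.661, 0.744 and 0.606 CPM (Reintroduction). It rose by 2.12 (log2; SE 0.30, adjusted p = 1.54e-04), to 34.5% of Mock. Ccdc3, a secreted protein of fat and endothelium, rose from 0.103 ± 0.056 to 0.318 ± 0.14 CPM (adjusted p = 9.96e-03), against 1.13 ± 0.098 CPM in Mock. Vwa1 and Ccdc3 share exon sequence with genes whose means were under 0.09 CPM in every group.

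Muc3, a membrane mucin of the intestinal surface, was the lowest of the 26 after washout. It (chromosome 5, 137134922 to 137149322) had 215, 178 and 193 counts in Mock, or 1.89, 2.01 and 2.52 CPM, then 0, 0 and 3 counts in Auxin and 0, 1 and 2 counts in Reintroduction. The ratio of Mock to Reintroduction was 143 (exact 95% interval 48.6 to 694, which covers counting error only and takes mates as independent, so that it is too narrow), and no fold between Auxin and Reintroduction is given at 3 counts each. The RefSeq start of Muc3 lies 16724 bases from the gene end used in the counts, so whether the counted entry covers the whole gene is uncertain. The other tested mucins did not share its course. In Mock, Auxin and Reintroduction, Muc1 had 2.42 ± 0.41, 9.32 ± 0.60 and 4.97 ± 0.35 CPM, and Muc6 had 0.977 ± 0.19, 1.08 ± 0.14 and 0.695 ± 0.060 CPM. Muc3a, a separate entry, had 0.255 ± 0.067, 0.584 ± 0.068 and 0.254 ± 0.12 CPM. Of the 20 mucin and mucosal genes listed, 5 were tested, Muc3 among them. The 4 others fell and 0 rose after washout (edgeR, also 0 higher at an unadjusted p under 0.05). Over all genes tested, 25.5% were called in each direction. The 5 intestinal epithelium markers summed to between 44.8 and 52.8 CPM (Mock), 54.9 and 62.8 CPM (Auxin) and 33.2 and 36.5 CPM (Reintroduction).

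Igfbpl1, C1ql1 and Lingo3 did not pass the test after washout. Igfbpl1, a secreted relative of the insulin-like growth factor binding proteins (chromosome 4, 45809468 to 45826923), had 1.96, 1.66 and 1.81 CPM (Mock), 0.17, 0.166 and 0.126 CPM (Auxin) and 0.203, 0.248 and 0.0865 CPM (Reintroduction). C1ql1, a secreted synaptic organiser, had means of 1.6 ± 0.15, 0.0962 ± 0.061 and 0.108 ± 0.025 CPM, and Lingo3, a leucine-rich-repeat surface protein of neurons, had 1.09 ± 0.17, 0.152 ± 0.045 and 0.183 ± 0.042 CPM. In all 3 the Reintroduction libraries overlapped Auxin, with log2 fold changes of 0.20, 0.15 and 0.40 that did not pass (edgeR, adjusted p = 0.688, 0.818 and 0.359). The standard errors of 0.38, 0.47 and 0.34 are large enough to leave the direction of each change open.

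The 2 amino acid transporters Slc38a3 and Slc38a5, which carry glutamine together with sodium, lay closest to the Mock limit. Slc38a3 (chromosome 9, 107650634 to 107669530) had 1.08, 1.07 and 0.927 CPM (Mock), 0.118, 0.152 and 0.268 CPM (Auxin) and 0.153, 0.113 and 0.284 CPM (Reintroduction). Slc38a5 (chromosome X, 8271133 to 8280179) had 1.04, 0.925 and 1.07 CPM (Mock), 0.0261, 0.0832 and 0.063 CPM (Auxin) and 0.0763, 0.113 and 0.0618 CPM (Reintroduction). For both genes the last 2 groups overlapped, and the changes of 0.21 and 0.55 on the log2 scale did not pass (SE 0.41 and 0.48). Of the 8 other SLC38 genes tested, Auxin was above Mock in 6 and below it in 1 by the test (38.4% and 34.8% of all genes). After washout 1 rose and 6 fell (25.5% of all genes each way). The widely expressed Slc38a1 had 116.3 ± 6.5, 281.5 ± 7.7 and 135.9 ± 2.9 CPM, and the lysosomal Slc38a7 had 45.1 ± 1.3, 140.3 ± 6.2 and 40.6 ± 1.9 CPM.

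Mt4, the metallothionein of stratified epithelia, binds zinc and copper. It had means of 1.61 ± 0.18 CPM (Mock), 0.0583 ± 0.053 CPM (Auxin) and 0.207 ± 0.099 CPM (Reintroduction), and was called higher after washout (log2 fold change 1.73, SE 0.57, adjusted p = 0.0264), although its lowest Reintroduction library lay below its highest Auxin library. That call was lost without Auxin replicate 2 or 3 or Reintroduction replicate 1 or 2 (1.33 to 1.56), and without Auxin replicate 1 the change was 2.72. Mt3, the metallothionein of brain, followed the same course at a higher level, with 3.25 ± 0.24, 0.407 ± 0.13 and 1.08 ± 0.16 CPM. The ubiquitous Mt1 (246.7 ± 14.6, 133.0 ± 15.1 and 103.0 ± 4.1 CPM) and Mt2 (374.8 ± 25, 343.4 ± 41 and 205.6 ± 12 CPM) fell after washout. The 6 markers of stratified epithelium summed to between 3.23 and 3.49 CPM (Mock), 4.82 and 5.45 CPM (Auxin) and 3.14 and 3.76 CPM (Reintroduction), and their part in Mt4 was not tested.

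Plk5 was the 1 gene called lower after washout, a call lost in 6 of 18 alternatives. It encodes a polo-like kinase relative of brain, whose family otherwise drives mitosis. It (chromosome 10, 80356459 to 80365489) had 1.02, 1.25 and 1.1 CPM (Mock), 0.144, 0.139 and 0.173 CPM (Auxin) and 0.089, 0 and 0.0247 CPM (Reintroduction), with 32 counts in Auxin and 9 in Reintroduction. Every Reintroduction library lay below every Auxin library, a fall of 1.67 (log2; SE 0.56, adjusted p = 0.0279), beside 25.5% of all genes called lower. The call was lost without Auxin replicate 1 or 3 or Reintroduction replicate 2 or 3 (log2 fold change -1.31 to -1.73), when only the 2 groups compared were fitted (-1.69, adjusted p = 0.0651) and with the replicate number as a block (-1.68, adjusted p = 0.053). Without Reintroduction replicate 1 the change was -3.06. Plk1, the mitotic kinase, had 76.9 ± 0.51, 60.2 ± 5.6 and 46.1 ± 2.7 CPM, and Plk2 had 8.98 ± 0.78, 24.7 ± 0.88 and 16.2 ± 1.3 CPM.

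The remaining coding genes came from several tissues. Teddm3, a transmembrane gene of the epididymis with a single exon block (chromosome 16, 21152655 to 21154000), had 1.89, 1.94 and 1.74 CPM in Mock, 0 counts in Auxin (3 counts would be 0.0141 CPM), and 0.254, 0.0451 and 0.124 CPM in Reintroduction. It was detected in all 3 Reintroduction libraries with 32 counts, at least 11.1-fold higher than Auxin against a floor of 3 counts over the group. It remained at 7.6% of Mock, with a log2 fold change of -3.71, or -4.43 without Reintroduction replicate 1. Cend1, which takes part in the cell cycle exit of neuronal precursors, had 1.09, 1.22 and 1.24 CPM (Mock), 0.157, 0.166 and 0.236 CPM (Auxin) and 0.382, 0.271 and 0.457 CPM (Reintroduction). Its groups were separate, with a rise of 1.12 (SE 0.27, adjusted p = 5.56e-03). Fam184b had 2.49, 1.67 and 2.51 CPM, then 0.183, 0.263 and 0.142 CPM, then 0.509, 0.226 and 0.235 CPM, with overlap and no call (adjusted p = 0.113).

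Myh6, the alpha myosin heavy chain of the heart, had 0.191 ± 0.032 CPM in Auxin and 0.187 ± 0.053 CPM in Reintroduction, against 1.05 ± 0.035 CPM in Mock. The log2 fold change after washout was 0.09 (SE 0.29, adjusted p = 0.825). Of the 3 other muscle myosin heavy chains tested, 1 (Myh3) was called lower in Auxin and 3 lower in Reintroduction than in Mock (34.8% and 33.4% of all genes). Myh3, the embryonic form, had 2.54 ± 0.20, 0.634 ± 0.090 and 0.897 ± 0.15 CPM, and was called higher after washout (adjusted p = 0.0209).

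Of the 4 noncoding members, 3 were called higher after washout, beside 12 of the 22 coding members and 25.5% of all genes tested. The pseudogene E530001F21Rik (chromosome X, 105164632 to 105165361) had 1.9, 1.84 and 1.66 CPM in Mock, 0 counts in Auxin, and 0.153, 0.18 and 0.0989 CPM in Reintroduction. With 28 counts it was at least 9.71-fold higher than Auxin. The pseudogene Gm13549 had 1.48, 1.51 and 1.03 CPM, then 0.222, 0.111 and 0.221 CPM, then 0.47, 0.338 and 0.507 CPM, and rose by 1.36 (SE 0.32, adjusted p = 4.59e-03). Reads of a processed pseudogene can be hard to tell from those of its parent gene, so both levels are uncertain. The long noncoding RNA Gm30692 had 1.35, 1.33 and 1.54 CPM, then 0.0654, 0.0832 and 0 CPM, then 0.191, 0.158 and 0.136 CPM, a rise of 1.69 (SE 0.54, adjusted p = 0.0228) whose call was lost without Reintroduction replicate 1 (1.52, adjusted p = 0.0817) and when only the 2 groups compared were fitted (1.69, adjusted p = 0.0629). Over all alternatives its change ran from 1.18 to 2.20. Gm40457 had 1.7, 1.26 and 1.37 CPM, then 0.144, 0.0832 and 0.0788 CPM, then 0.153, 0.0226 and 0.21 CPM, with no call (log2 fold change 0.55, SE 0.53, adjusted p = 0.419).

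**Figure D4:**
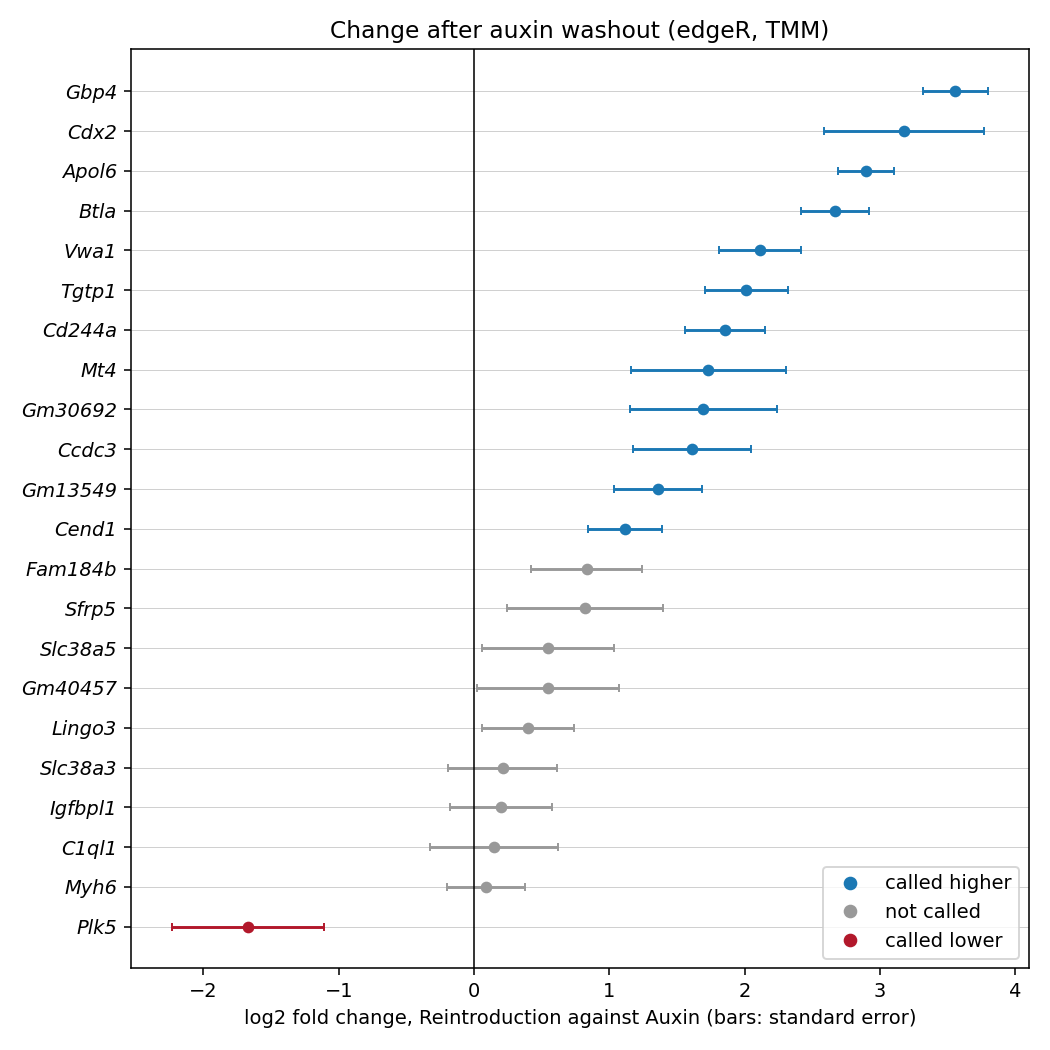
Log2 fold change of Reintroduction against Auxin with its standard error for 22 genes with more than 3 counts in Auxin. Changes run from -1.67 in Plk5 to 3.56 in Gbp4, and the 12 called higher (blue) lie above 1.

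The 26 genes shared little in structure. Their median exon length was 2674 bases, against 3360 for all genes with a Mock mean of at least 1 CPM, and 3 of them had a single exon block (11.5% against 18.6%). They lay on 14 chromosomes, at most 4 on one (chromosome 5), and the closest pair was Plk5 and Lingo3 on chromosome 10, 467318 bases apart. Exon sequence was shared with another gene in 6 of them (23.1% against 27.6%).

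Promoters are shown for 4 genes at different points of the order: Cdx2, Btla and Tgtp1, which returned to more than 37% of Mock, and Plk5, the 1 called lower after washout. RefSeq promoters (GRCm38.p6) matched 16 of the 26 symbols, and Gbp4 and Apol6 were not among them. Each sequence is the 250 bases before the RefSeq start site, 5′ to 3′ on the gene's strand, with motif matches in capitals. They are chr5:147307250-147307499 (minus strand) for Cdx2, chr16:45224087-45224336 (plus) for Btla, chr11:48992247-48992496 (minus) for Tgtp1, whose RefSeq start lies 1926 bases from the gene end used in the counts, and chr10:80356209-80356458 (plus) for Plk5.
Cdx2: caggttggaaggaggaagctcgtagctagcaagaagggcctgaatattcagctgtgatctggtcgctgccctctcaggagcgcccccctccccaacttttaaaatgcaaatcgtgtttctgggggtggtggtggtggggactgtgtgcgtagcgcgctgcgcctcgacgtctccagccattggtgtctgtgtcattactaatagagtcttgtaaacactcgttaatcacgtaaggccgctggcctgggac
Btla: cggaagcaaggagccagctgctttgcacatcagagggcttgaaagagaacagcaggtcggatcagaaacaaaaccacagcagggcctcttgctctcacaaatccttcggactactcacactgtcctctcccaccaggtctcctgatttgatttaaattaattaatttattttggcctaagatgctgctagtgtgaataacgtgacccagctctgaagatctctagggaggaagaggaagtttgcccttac
Tgtp1: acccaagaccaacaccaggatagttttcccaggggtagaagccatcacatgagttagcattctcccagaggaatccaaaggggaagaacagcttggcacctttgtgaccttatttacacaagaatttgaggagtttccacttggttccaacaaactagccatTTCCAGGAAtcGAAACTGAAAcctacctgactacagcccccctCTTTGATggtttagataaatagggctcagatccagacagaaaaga
Plk5: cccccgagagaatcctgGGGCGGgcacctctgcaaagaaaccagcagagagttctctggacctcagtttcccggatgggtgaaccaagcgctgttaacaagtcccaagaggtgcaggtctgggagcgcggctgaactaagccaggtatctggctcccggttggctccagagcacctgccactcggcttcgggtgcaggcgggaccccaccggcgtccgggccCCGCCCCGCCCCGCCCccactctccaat

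The motifs were searched on both strands. The general promoter elements were the TATA box, spelled TATAAA, and the binding site of Sp factors known as the GC box, spelled GGGCGG. The E-box, to which basic helix-loop-helix proteins bind, was searched as CACGTG. STAT factors bind the palindrome searched as TTCNNNGAA, and AP-1 factors bind the one searched as TGANTCA. TCF factors, which act with beta-catenin, bind the site searched as CTTTGAT. The interferon-stimulated response element was added after the genes were known. In Tgtp1 the capitals mark a STAT motif, an interferon element and a TCF motif, in that order, which start 88, 77 and 45 bases before the start site. It was the 1 promoter of the 16 with the STAT motif (7.02% of all 32851 promoters hold it) and the 1 with the interferon element (2.98% of all). In Plk5 they mark GC boxes in both orientations, 3 of them in 1 overlapping run, and in Cdx2 and Btla no motif matched. Over the 16 promoters the GC box was in 6 (37.5%, against 32.7% of all), the E-box in 4 (25%, against 6.02%), the TCF motif in 2, Tgtp1 and Myh6 (12.5%, against 3.21%), and the TATA box and AP-1 motif in 1 each, Mt4 and Cd244a. CG dinucleotides numbered 1 to 27 with a median of 6, the same median as over all promoters. These are matches of letters and say nothing of binding.

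The 7 markers of 2-cell-like cells, a rare state in stem cell cultures, were low in every group: they summed to between 0.339 and 0.623 CPM (Mock), 0.0262 and 0.0693 CPM (Auxin) and 0 and 0.0742 CPM (Reintroduction). At 0 counts were 1 of the 7 in Mock, 5 in Auxin and 3 in Reintroduction. The sum was lower in Auxin, as the 26 genes are by choice, and after washout its range took in that of Auxin and lay below Mock. Of 33 listed 2-cell-stage genes 6 were tested, with 5 called lower in Auxin than in Mock (34.8% of all genes) and 2 higher after washout (25.5%). Their part in the results was not tested.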

How the data were processed

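RNA was measured in 9 libraries. The authors deposited raw read counts per gene, made per the file headers with featureCounts 2.0.6 over exons of an mm10 annotation, in paired-end mode and without a strand setting. Each mate counts as a read, so independent fragments are fewer than counts. The submitters' processing notes also name Trim Galore 0.6.10, FastQC 0.12.1, Bowtie2 2.5.3 and SAMtools 1.20, without roles. Bowtie2 does not split reads across introns, so if it aligned them to the genome, reads over exon junctions are missing and CPM of genes with many exons are too low. The recorded command sets no option to count reads that fit several genes or places.

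CPM were computed on column totals. Symbols matched 48058 of 48440 genes. All libraries entered 1 edgeR 4.0.16 quasi-likelihood fit (R 4.3.3, TMM factors 0.905 to 1.08, filterByExpr, 20838 genes, group as the only term), and Benjamini-Hochberg adjustment ran over all genes. All 26 genes passed the filter. Tests were two-sided, and p-values measure the spread between the 3 biological replicates per group, for which the labels name no culture or day. The test was checked on simulated counts. Alternatives included DESeq2 1.42.0, other scalings and filters, and leaving out libraries. Values for every library were printed for the genes highest in Mock or Reintroduction, those with the largest return, those at 0 counts in Auxin and those on a list, and some others were added after their values were seen. The genes and lists were chosen with earlier results of these data known. Of the 26 genes, 1 enters the counts and medians but is not reported here by itself, nor are some other genes.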

Additional observations from a re-analysis of the deposited data

How the results depend on the processing

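The choice of genes gave 25 to 29 genes when a Mock or Auxin library was left out, and 31, the 26 among them, when CPM were scaled with TMM factors. The count called higher after washout was 13 to 15 when a library was left out, and 11 when only the 2 groups compared were fitted, a fit whose filter kept 20 of the 26 genes. The count called lower after washout, 1 (Plk5), was 0 in that fit and 0 with the replicate number as a block (log2 fold change -1.68, adjusted p = 0.053), and 0 to 1 when a library was left out. The replicate numbers did not pair the samples: the correlation of same-numbered deviations from the group means ran from -0.546 to 0.45. The block also ended the call of Gbp4 against Mock (-0.43, adjusted p = 0.0536). Members at 1 CPM or more after washout numbered 1 to 3 when a Reintroduction library was left out, and those lower than Mock 24 to 26 when any library was. A filter of 1 CPM in 3 libraries kept 22 of the 26. Directions after washout that were not called turned when single libraries were left out, where the log2 fold change ran from -0.23 to 0.60 for C1ql1, -0.022 to 0.57 for Igfbpl1, -0.14 to 0.23 for Myh6 and -0.29 to 0.59 for Slc38a3. At 0.1 CPM a library held about 4 to 11 counts.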
